A study of Mus musculus with 4 samples.

Results

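The genes described here encode the enzymes of mitochondrial and peroxisomal fatty acid oxidation and the acyl-CoA synthetases, carnitine transferases and thioesterases that feed and drain the pathway. They are a list of 41 genes chosen by function, with earlier results of these data known. Their values were read by platform gene symbol, with the probe sets of a gene averaged. Of the 41 genes, 38 had a probe set with a single gene symbol, out of 19938 genes measured in this way in mouse liver. All 38 also passed a filter on dim genes, which required a mean above 3.34 on the log2 scale and left 11963 genes to test. Acsl3 and Cpt1b lie in probe sets that name a further gene, and Acsl1 was matched to no probe set, so these 3 genes were not analysed here.

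The study measured liver RNA on 4 Affymetrix Mouse Gene 1.0 ST arrays, 1 for each of 4 groups. The groups were mice labelled WT SIRT6 at 2 months and at 8 months of age, and mice labelled SIRT6Co/Co ;Alb-Cre, titled KO, at the same 2 ages. In the second genotype a conditional allele of Sirt6, a chromatin-bound deacetylase that uses NAD, is combined with Cre recombinase. The promoter of albumin, a hepatocyte gene, drives Cre, and whether other liver cells kept Sirt6 was not tested. Each array held a pool from 3 pairs of mice, and no source used here gives the sex, strain or feeding state of the mice. With 1 pool per group, the spread between animals and between pools of a group was not measured.

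Fatty acids are oxidised after they have been joined to coenzyme A. Long chains enter mitochondria through the carnitine shuttle, and each turn of the beta-oxidation spiral then removes an acetyl unit by dehydrogenation, hydration, a further dehydrogenation and thiolytic cleavage. Peroxisomes shorten very long and branched chains with their own set of enzymes, and thioesterases in both organelles split acyl-CoA back into a free fatty acid and coenzyme A. In liver many of these genes are targets of the nuclear receptor PPAR alpha, and the acetyl-CoA made from fat in fasting is turned into ketone bodies.

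The Sirt6 probe set did not separate the groups, at 4.55 and 4.50 under the WT label against 4.54 and 4.46 under the KO label, for 2 and 8 months in turn. No source used here says which exons it covers. The groups are therefore called by their labels. Of 8 measured hepatocyte markers, 1 was lower by the test below, the urea cycle enzyme Arg1 by 0.32, and 0 were higher. In 4 of the 8 both KO-labelled arrays lay below both WT-labelled arrays, as they did in 25.7% of all genes. Cps1 and Apoa1 had mean differences of -0.24 and -0.23 (limma adjusted p 0.059 and 0.060). Albumin (Alb) read between 12.5 and 12.6 on all 4 arrays. The mean of the 8 measured markers was 11.50 and 11.54 under the WT label against 11.47 and 11.42 under the KO label. The immediate early gene Fos read 4.49 and 4.39 in the WT-labelled arrays against 8.12 and 8.17 in the KO-labelled ones, at 2 and 8 months. Some genes of other liver cells also moved with genotype. Of 9 Kupffer cell and macrophage markers past the filter, 3 were higher by the test below (Vsig4, Cd5l and Timd4) and 0 lower. The mean of the 9 was 5.35 and 5.16 under the WT label against 5.64 and 5.54 under the KO label. Marco, also on that list, read 2.77 to 3.00, below the filter. Of 10 stellate and mesenchymal markers 4 were lower (Acta2, Col1a1, Col1a2 and Col3a1) and 1 higher (Reln). The list means were 5.87 and 5.75 against 5.55 and 5.46, with Acta2 furthest apart at -1.94. The list did not move as a whole: its median of the mean difference over the ages was 0.01. Both KO-labelled arrays lay below both WT-labelled arrays in 4 of the 10 and above them in 3. Of 4 erythroid markers 2 were higher (Alas2 and Car1) and 0 lower, with list means of 5.05 and 5.02 against 5.32 and 5.34. Klf1, also on the erythroid list, went the other way without passing, with a mean difference of -0.41 (limma adjusted p 0.072). Of 10 endothelial markers 1 was higher (Cdh5) and 0 lower, with list means of 5.67 and 5.64 against 5.75 and 5.63. Past the filter were also 3 cholangiocyte markers, 7 muscle and heart markers and 1 lymphocyte marker, of which 0 were higher and 0 lower. Among 4 adipocyte genes past the filter 1, the lipid droplet gene Cidec, was lower. Over all genes tested 4.26% were lower and 6.81% higher by this test. Adiponectin (Adipoq) read 2.26 to 2.36 on the 4 arrays, below the filter, and the muscle kinase Ckm read 3.72 to 4.16. The part of these differences in the results below was not tested, and in whole liver fewer cells of a type and less RNA per cell cannot be told apart.

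Differences were read in 6 comparisons. The difference between KO-labelled and WT-labelled arrays at each age, and between 8 and 2 months in each genotype, is a value without a test. The test is an additive limma model of genotype and age over all 4 arrays, with p-values adjusted by Benjamini-Hochberg over the 11963 genes and a threshold of 0.05. It rests on 1 residual degree of freedom per gene, moderated across genes, so it weighs an effect against the disagreement between the 2 ages or genotypes and not against the spread between pools. The words rose and fell are used for genes past this threshold, in the KO-labelled relative to the WT-labelled arrays. The replicate of the genotype difference at 2 months is the difference at 8 months, in other pools.

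Of the 38 genes, 6 fell in the KO-labelled arrays and 0 rose. Those that fell were the acyl-CoA thioesterases Acot3, Acot4 and Acot12, the peroxisomal thiolase Acaa1a, the peroxisome division gene Pex11a and the mitochondrial enoyl-CoA isomerase Eci1. Over all genes tested 11.1% passed, 4.26% fell and 6.81% rose, beside 15.8% of the members that fell. The 2 sets differed in level, at a mean of 8.91 for members and 5.62 for all genes (WT label, 2 months). Under the intensity trend bright genes had smaller SEs, at 0.07 for Acaa2 against 0.12 for Acot3. With the filter at the 60th percentile 6 members and 6.12% of all genes fell, and without the trend 2 members and 2.72%. The list was chosen with earlier results of these data known, so the contrast is no test. At an unadjusted limma p under 0.05, 11 members were lower and 4 higher, against 10.4% and 14.6% of all genes. The sizes were small. The mean difference over the 2 ages ran from -0.61 (Acot3) to 0.33 (Acsl4) log2 units, and 18 of 38 members stayed within 0.2 log2 units of zero at both ages, as did 41% of all genes. The median difference of the members was -0.01 at 2 months and -0.07 at 8 months, beside 0.01 and 0.00 over all genes. A difference of at least 1.5-fold, or 0.58 log2 units, was seen in 1 member at 2 months, Acot3, and in 0 at 8 months, against 6.37% and 4.34% of all genes.

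**Figure D1:**
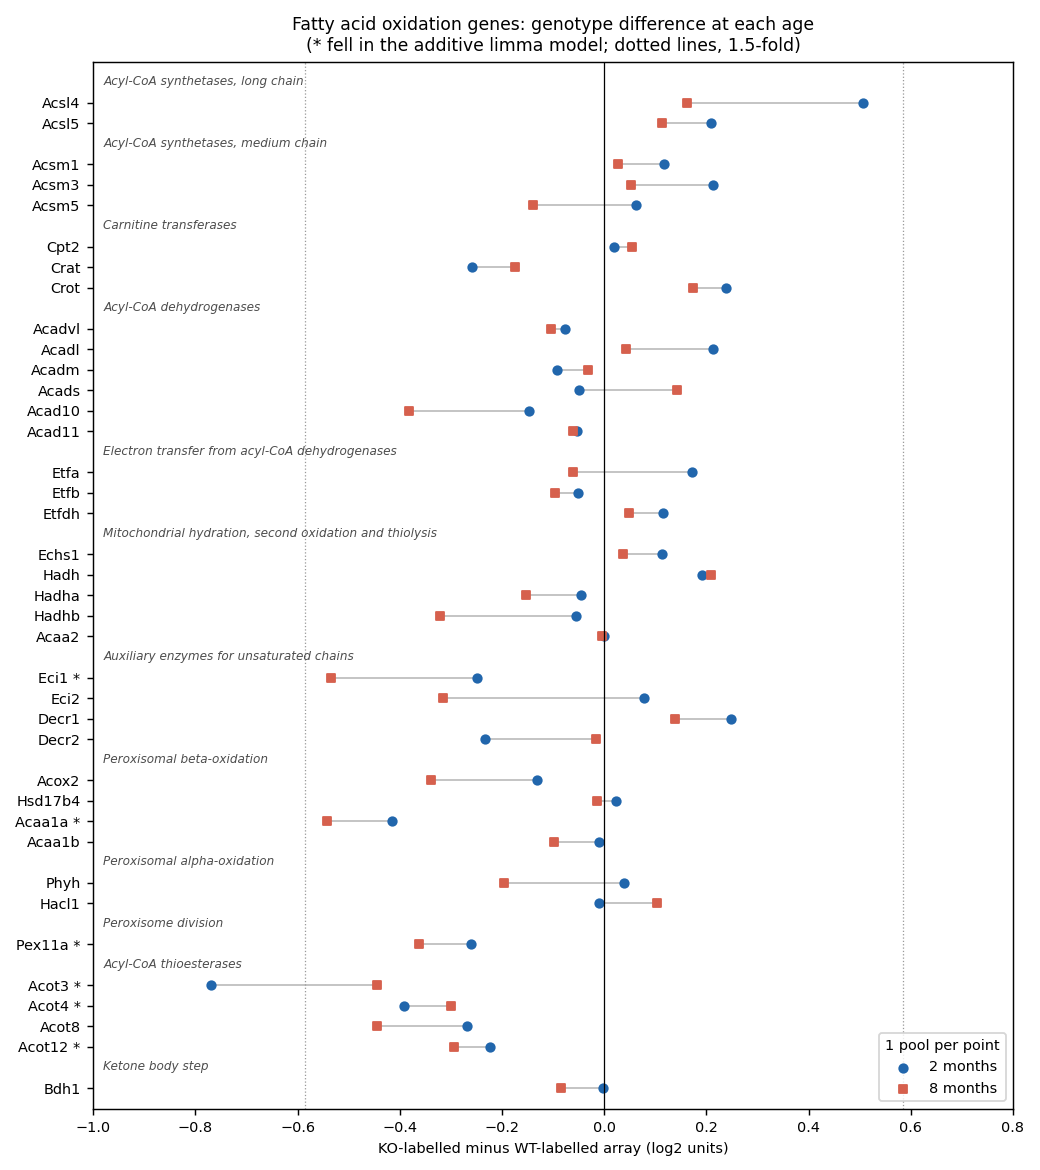
Difference between the KO-labelled and WT-labelled array (horizontal axis, log2 units) for the 38 measured fatty acid oxidation genes, grouped by role, at 2 months (circles) and 8 months (squares), each point from 1 pool per genotype. The 4 thioesterases, Pex11a, Acaa1a and Eci1 lie left of zero at both ages, and most of the spiral enzymes lie around zero.

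The start regions of the 6 genes that fell are shown because these are the members past the threshold. Each runs from 250 bases before to 50 bases after the annotated transcription start (RefSeq, build GRCm38.p6), 5′ to 3′ on the strand of the gene. Capitals mark the letters AGGTCA, the hexamer that nuclear receptors such as PPAR alpha recognise, which reads as its complement TGACCT where it lies on the opposite strand.
Acot3, chr12:84051894-84052193, plus strand: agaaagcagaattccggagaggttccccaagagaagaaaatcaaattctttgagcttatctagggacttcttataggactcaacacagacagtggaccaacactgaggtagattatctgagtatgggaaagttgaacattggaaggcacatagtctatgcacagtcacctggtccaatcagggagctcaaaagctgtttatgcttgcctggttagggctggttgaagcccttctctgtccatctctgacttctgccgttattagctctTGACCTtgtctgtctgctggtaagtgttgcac
Acot4, chr12:84038129-84038428, plus strand: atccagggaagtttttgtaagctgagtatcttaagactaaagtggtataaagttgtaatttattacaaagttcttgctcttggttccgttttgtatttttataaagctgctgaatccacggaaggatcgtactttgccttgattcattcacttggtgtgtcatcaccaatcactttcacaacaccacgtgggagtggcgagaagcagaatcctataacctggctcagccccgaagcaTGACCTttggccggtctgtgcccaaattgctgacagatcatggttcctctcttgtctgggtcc
Acot12, chr13:91741271-91741570, plus strand: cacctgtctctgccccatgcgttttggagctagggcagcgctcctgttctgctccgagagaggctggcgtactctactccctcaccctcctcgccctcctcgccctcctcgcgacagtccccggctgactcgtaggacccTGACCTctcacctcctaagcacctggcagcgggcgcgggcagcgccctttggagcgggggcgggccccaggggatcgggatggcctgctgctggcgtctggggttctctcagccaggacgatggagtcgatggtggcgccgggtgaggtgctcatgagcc
Acaa1a, chr9:119341044-119341343, plus strand: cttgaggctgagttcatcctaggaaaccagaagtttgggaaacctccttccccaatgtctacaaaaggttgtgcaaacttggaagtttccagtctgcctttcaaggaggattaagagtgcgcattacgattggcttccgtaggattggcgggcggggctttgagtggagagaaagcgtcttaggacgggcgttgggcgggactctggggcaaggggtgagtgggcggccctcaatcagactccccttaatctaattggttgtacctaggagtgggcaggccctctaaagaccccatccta
Pex11a, chr7:79743082-79743381, minus strand: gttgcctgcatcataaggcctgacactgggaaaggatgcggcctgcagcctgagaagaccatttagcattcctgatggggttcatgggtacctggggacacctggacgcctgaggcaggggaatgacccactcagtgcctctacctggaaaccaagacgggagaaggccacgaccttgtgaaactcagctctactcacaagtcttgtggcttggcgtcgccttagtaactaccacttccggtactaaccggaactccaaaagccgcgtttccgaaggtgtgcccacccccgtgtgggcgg
Eci1, chr17:24426433-24426732, plus strand: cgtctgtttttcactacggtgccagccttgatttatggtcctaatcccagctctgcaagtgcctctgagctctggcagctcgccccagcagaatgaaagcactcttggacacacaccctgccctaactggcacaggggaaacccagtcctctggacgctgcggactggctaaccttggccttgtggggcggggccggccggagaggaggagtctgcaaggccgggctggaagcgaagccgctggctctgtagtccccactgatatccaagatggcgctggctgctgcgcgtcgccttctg
The windows of Acot3, Acot4 and Acot12 carried 1 such hexamer, each on the opposite strand, and those of Acaa1a, Pex11a and Eci1 carried none. The window of Acot8, the remaining measured thioesterase, did not hold it either. The hexamer began 18 bases after the start in Acot3, 13 bases before it in Acot4 and 110 bases before it in Acot12. Acot3 has a further annotated start nearby, whose window holds the same hexamer. Windows were found for 36 of the 41 members, 40 windows in all, of which 9 (22.5%) held AGGTCA on either strand, beside 16.3% of all 32851 windows. The other members with the hexamer were Acadm, Acadvl, Acsm1, Echs1 and Phyh, none of which passed the test. The direct repeat of the hexamer with 1 base between its copies was in 0 of the 40 and in 13 of all windows. A match in letters is a description of these windows, and no match says only that the letters are not in them.

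The thioesterases, which hydrolyse acyl-CoA to the free acid and coenzyme A, were lower in both KO-labelled arrays than in both WT-labelled arrays in all 4 measured cases, and 3 of the 4 fell. Over all genes tested 25.7% had this order of the arrays and 4.26% fell. Acot3, a peroxisomal enzyme for long chains, read 5.78 at 2 months and 5.38 at 8 months under the WT label, against 5.01 and 4.93 under the KO label. Its mean difference was -0.61 (SE 0.12, 2 arrays per genotype), with a limma adjusted p of 0.0071. Of the 4 thioesterases it differed most between the ages, at -0.77 at 2 months and -0.45 at 8 months, and its WT-labelled level was the one that moved, by -0.40 against -0.07 under the KO label. Acot4, which acts on succinyl-CoA in peroxisomes, read 7.72 and 7.60 against 7.33 and 7.30. Its mean difference was -0.35 (SE 0.09) with a limma adjusted p of 0.022. Acot12, the cytosolic enzyme for acetyl-CoA, read 9.34 and 9.35 against 9.11 and 9.06, and its mean difference of -0.26 (SE 0.08) passed narrowly, with a limma adjusted p of 0.049. The levels within a genotype differed by 0.06 or less for Acot12, and those of the 2 genotypes did not overlap. Acot8, a peroxisomal thioesterase of broad range, read 5.31 and 5.39 against 5.04 and 4.94, a mean difference of -0.36 (SE 0.12) with a limma adjusted p of 0.081. All 4 thioesterases stayed lower on average when arrays were centred on their medians, quantile normalized again or scaled by cyclic loess. The call of Acot12 was lost under median centring (limma adjusted p 0.128), and those of Acot4 and Acot12 were lost without the filter on dim genes and without the intensity trend (0.072 and 0.117, and 0.093 and 0.185).

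**Figure D2:**
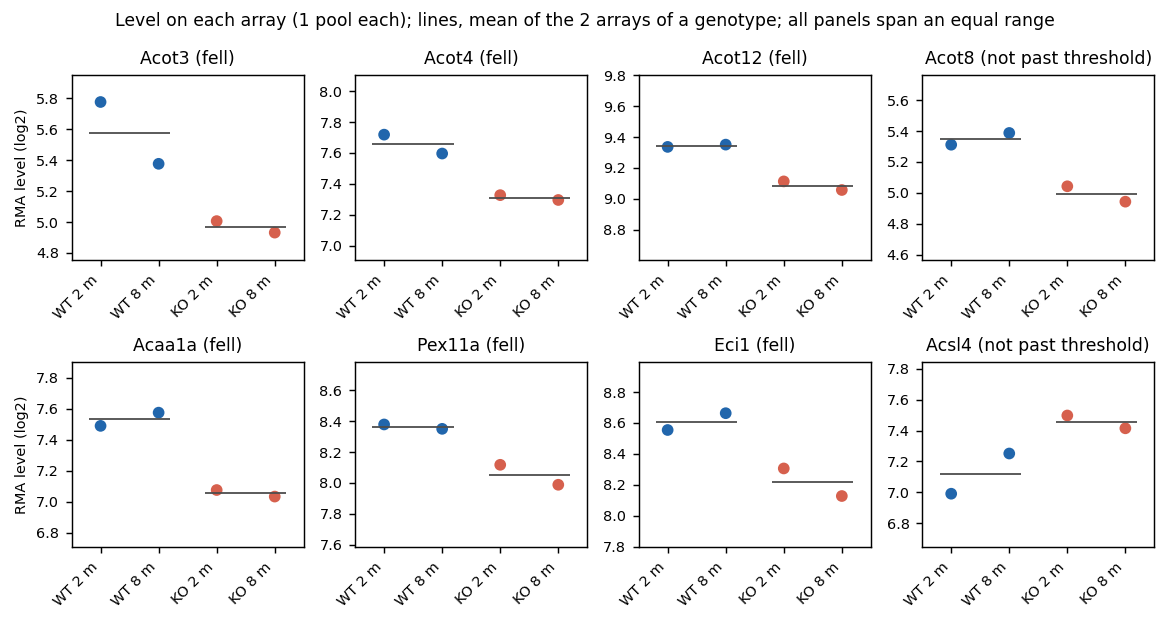
RMA level (vertical axis, log2) on each of the 4 arrays for the 4 thioesterases, Acaa1a, Pex11a, Eci1 and Acsl4, with lines at the mean of the 2 arrays of a genotype. Both KO-labelled arrays lie below both WT-labelled arrays in every panel except that of Acsl4, where both lie above.

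Acot3 and Acot4 belong to a row of 6 neighbouring thioesterase genes on mouse chromosome 12, in the order Acot2, Acot1, Acot4, Acot3, Acot5 and Acot6. Acot1, the cytosolic enzyme of the row, fell by 1.22 on the log2 scale (SE 0.09, limma adjusted p 2.13e-06), from 7.49 and 7.43 to 6.30 and 6.18. The mitochondrial Acot2 fell by 0.68 (SE 0.09, limma adjusted p 0.000415), from 7.01 and 7.00 to 6.35 and 6.29. Thus all 4 genes of the row that passed the filter fell. Acot5 and Acot6 were below the filter, at 2.39 to 2.59 and 3.22 to 3.33, and were not tested. These genes are close paralogs, and whether their probes separate them fully was not tested.

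**Figure D3:**
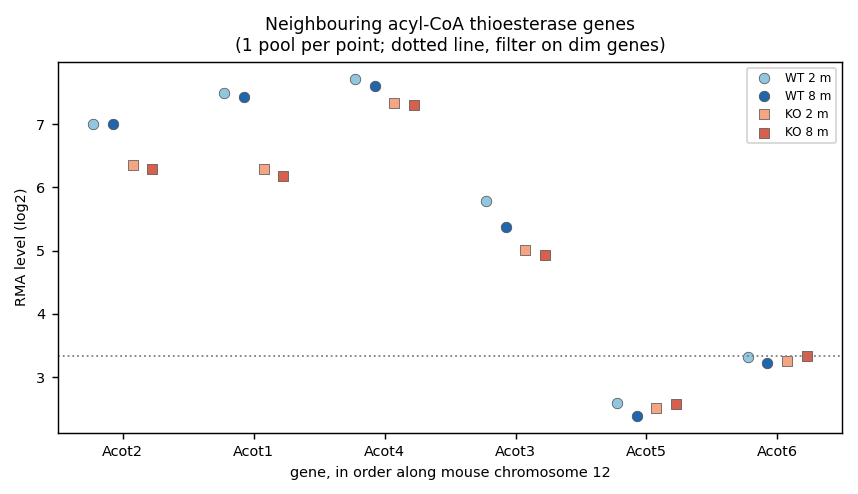
RMA level (vertical axis, log2) of 6 thioesterase genes in their order along chromosome 12 on each of the 4 arrays, 1 pool per point; the dotted line is the filter at 3.34, and heights are not comparable between genes. In Acot2, Acot1, Acot4 and Acot3 both KO-labelled arrays (squares) lie below both WT-labelled arrays (circles), and Acot5 and Acot6 lie at or below the filter.

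Among the peroxisomal enzymes of beta-oxidation, 1 of 4 fell. Acaa1a, a thiolase that releases acetyl-CoA at the last step of the peroxisomal cycle, read 7.49 and 7.58 under the WT label against 7.08 and 7.03 under the KO label. Its mean difference was -0.48 (SE 0.09), with a limma adjusted p of 0.0036, and the call held under each of the 8 alternative settings of the fit. Its close paralog Acaa1b read 9.28 and 9.40 against 9.27 and 9.30, a difference of -0.01 at 2 months and -0.10 at 8 months. The difference between the paralogs was not tested. Acox2, the oxidase for branched chains and bile acid intermediates, was lower at both ages, by 0.13 and 0.34, with a mean of -0.24 (SE 0.08) and a limma adjusted p of 0.095. It passed only after renewed quantile normalization or cyclic loess. Hsd17b4, the bifunctional hydratase and dehydrogenase of the cycle, stood at 0.02 and -0.01.

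Pex11a, which promotes the division of peroxisomes, read 8.38 and 8.35 under the WT label against 8.12 and 7.99 under the KO label. It fell by 0.31 (SE 0.08), with a limma adjusted p of 0.027 that was 0.068 under median centring, 0.086 without the filter and 0.123 without the intensity trend. Alpha-oxidation, which removes a single carbon from branched acids such as phytanic acid, showed no common direction. The hydroxylase Phyh differed by 0.04 at 2 months and -0.20 at 8 months and the lyase Hacl1 by -0.01 and 0.10. In a list of 15 other peroxins, the proteins that build peroxisomes, 12 were measured past the filter. Of these 1 fell and 0 rose, beside 4.26% and 6.81% of all genes tested. The gene that fell was Pex16, which acts in membrane assembly, by 0.44 (SE 0.09, limma adjusted p 0.00472). The peroxins next lowest in mean difference were Pex26 at -0.33 and Pex14 at -0.18, and the highest were Pex3 at 0.19, Pex13 at 0.16 and Pex7 at 0.06, none of them past the threshold.

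The 4 enzymes that handle double bonds of unsaturated chains differed among themselves. Eci1, the mitochondrial isomerase that moves a double bond into the position the hydratase needs, read 8.55 and 8.66 under the WT label against 8.31 and 8.13 under the KO label. It fell by 0.39 (SE 0.09, limma adjusted p 0.013), and the adjusted p was 0.064 without the filter and 0.086 without the intensity trend. Its relative Eci2, found in peroxisomes and mitochondria, read 8.81 and 9.05 against 8.89 and 8.73. The genotypes overlapped for Eci2, and the difference was 0.08 at 2 months and -0.32 at 8 months. The mitochondrial dienoyl-CoA reductase Decr1 was higher at both ages, by 0.25 and 0.14 (limma adjusted p 0.14), and its peroxisomal counterpart Decr2 was at -0.23 and -0.02 (limma adjusted p 0.38).

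The acyl-CoA dehydrogenases, which start each turn of the spiral, had 6 measured genes, and 0 passed the limma test in either direction at an adjusted p under 0.05. At an unadjusted p under 0.05 there was 1, Acad10. The 4 enzymes named for chain length differed by 0.21 or less. Very long chain Acadvl was at -0.08 and -0.10, long chain Acadl at 0.21 and 0.04, medium chain Acadm at -0.09 and -0.03 and short chain Acads at -0.05 and 0.14. For Acadm the levels were 10.70 and 10.69 under the WT label against 10.61 and 10.66 under the KO label. The 2 genotypes were thus 0.06 apart on average with an SE of 0.07. Acad11 was at -0.05 and -0.06, and Acad10 at -0.15 and -0.38 with a limma adjusted p of 0.14. The flavoproteins that take electrons from these enzymes were as close: Etfa stood at 0.17 and -0.06, Etfb at -0.05 and -0.10, and Etfdh, which passes the electrons on to ubiquinone, at 0.12 and 0.05.

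The later steps of the mitochondrial spiral had 5 measured genes, of which 0 passed the limma test and 2, Hadh and Hadhb, had an unadjusted p under 0.05. The thiolase Acaa2 was the most even gene of the list, at 11.00 and 11.02 under the WT label against 11.00 and 11.01 under the KO label. Echs1, the hydratase for short chains, was at 0.11 and 0.04. Hadh, the dehydrogenase for shorter chains, was higher in both KO-labelled arrays, at 10.26 and 10.17 against 10.06 and 9.96, a mean difference of 0.20 (SE 0.07) with a limma adjusted p of 0.11. Hadha and Hadhb encode the subunits of the trifunctional protein, the enzyme for long chains, and lie head to head on chromosome 5, where their start windows of 300 bases overlap by 228 bases on opposite strands. Hadha was at -0.04 and -0.15 and Hadhb at -0.05 and -0.32, both lower in each KO-labelled array. Hadhb is the only member with 2 probe sets, and these gave -0.05 at 2 months alike and -0.32 and -0.33 at 8 months. Under cyclic loess Hadh, Hadhb, Crot, Crat, Acad10 and Acot8 also passed the threshold, and Crot passed without a term for age as well.

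Of the activating enzymes that join fatty acids to coenzyme A, 5 were measured and 0 passed the limma test; 1, Acsl4, had an unadjusted p under 0.05. Acsl4, an acyl-CoA synthetase that prefers arachidonic acid, read 6.99 and 7.25 under the WT label against 7.50 and 7.41 under the KO label. Its mean difference of 0.33 (SE 0.10) had an unrounded limma adjusted p just above the threshold (0.050), and it passed in 5 of 8 alternative settings, with adjusted p-values from 0.015 to 0.149 over the 8. The difference was 0.51 at 2 months and 0.16 at 8 months. Acsl5 stood at 0.21 and 0.11, also higher in both KO-labelled arrays. The medium chain synthetases Acsm1, Acsm3 and Acsm5 were at 0.12 and 0.03, 0.21 and 0.05, and 0.06 and -0.14.

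The carnitine transferases, which move acyl groups across membranes, went in different directions, and 0 of 3 passed the limma test, while 2, Crot and Crat, had an unadjusted p under 0.05. Cpt2, which reforms acyl-CoA inside mitochondria, was at 0.02 and 0.05. Crot, which makes carnitine esters of medium chains in peroxisomes, was higher, at 10.85 and 10.79 against 10.61 and 10.61, a mean difference of 0.21 (SE 0.07, limma adjusted p 0.10). Crat, the transferase for acetyl groups, was lower, at 6.98 and 7.02 against 7.23 and 7.20, a mean difference of -0.22 (SE 0.09, limma adjusted p 0.15). Neither gene's genotypes overlapped, but 25.7% of all genes had both KO-labelled arrays below both WT-labelled arrays and 29.1% had both above. The ketone body dehydrogenase Bdh1 was at 0.00 and -0.09.

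By place in the cell, a grouping made after the values were seen and given without a test, the 12 measured peroxisomal genes had a median difference of -0.18 at 2 months and -0.25 at 8 months, and 4 of them fell. The 19 mitochondrial genes had medians of 0.02 and 0.00, and 1 fell. Over all genes tested 4.26% fell. In 18 of the 38 members both KO-labelled arrays were below both WT-labelled arrays, against 25.7% of all genes. In 10 members both were above, against 29.1% of all genes. The mean difference kept its sign in 35 of 38 members under median centring, renewed quantile normalization, cyclic loess and the use of the brightest probe set. The exceptions were Cpt2, Acaa2 and Hsd17b4, whose values lay next to zero. Use of the brightest probe set could change only Hadhb, the only member with 2 probe sets.

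**Figure D4:**
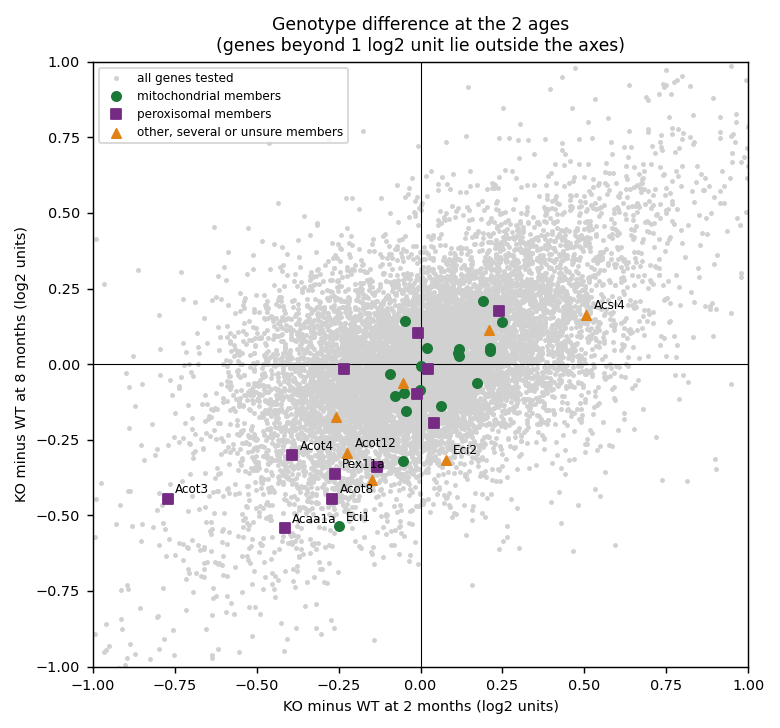
Genotype difference at 2 months (horizontal axis) against that at 8 months (vertical axis), both in log2 units from 1 pool per group, for all 11963 genes tested (grey, those within 1 log2 unit) and the 38 members (coloured by place in the cell). Most mitochondrial members lie around zero. Acot3, Acot4, Acot8, Acaa1a and Pex11a, which are peroxisomal, lie at the lower left together with Acot12 and the mitochondrial Eci1.

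Age made little difference to these genes. In the additive limma model 0 of 38 members passed for age and 0 had an unadjusted p under 0.05, where 0.00836% of all genes passed and 3.6% had such an unadjusted p. No member was 1.5-fold apart between 8 and 2 months in either genotype, beside 0.652% of all genes in each. In the WT-labelled arrays the widest age differences were -0.40 for Acot3, 0.26 for Acsl4, 0.24 for Eci2 and -0.20 for Acads. In the KO-labelled arrays they were -0.19 for Acsm5, -0.18 for Eci1, -0.16 for Phyh and -0.16 for Eci2. The KO-labelled array at 8 months read lower than that at 2 months in 30 of 38 members, as it did in 57.8% of all genes. The WT-labelled array at 8 months read higher than that at 2 months in 23 members, against 50.5% of all genes. The difference between the genotypes was accordingly more negative at 8 than at 2 months in 29 of 38 members, against 54.1% of all genes, with a median shift of -0.09 beside -0.02 over all genes. With 1 array per group this shift has no test.

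**Figure D5:**
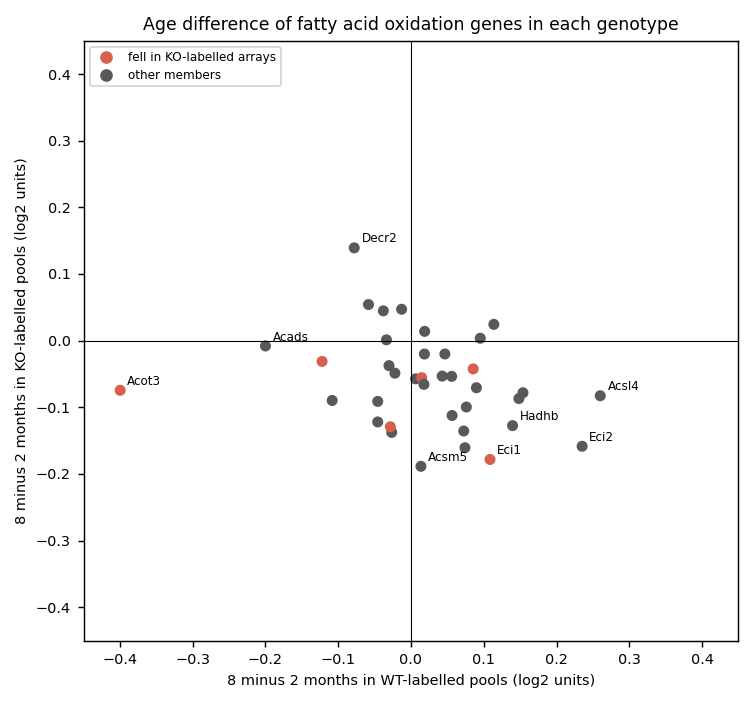
Difference between 8 and 2 months in the WT-labelled pools (horizontal axis) and in the KO-labelled pools (vertical axis), in log2 units, for the 38 members. No point lies beyond 0.40 in size, and the lower right quadrant, higher at 8 months in WT and lower in KO, holds 20 of the 38 genes, a pattern seen in 30.8% of all genes tested.

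The remaining enzymes of the pathway were read from a list of 50 genes, of which 38 were measured past the filter. Of these 8 fell and 5 rose, beside 4.26% and 6.81% of all genes tested. The median difference of the list was -0.11 at 2 months and -0.09 at 8 months, beside 0.01 and 0.00 over all genes. The list was chosen with earlier results of these data known, so the contrast is no test. Besides Acot1 and Acot2, the genes that fell were Cpt1a, which makes the carnitine esters that enter mitochondria, by 0.48, the peroxisomal bifunctional enzyme Ehhadh by 0.36, the mitochondrial dehydrogenase Hsd17b10 by 0.57, the bile acid and fatty acid ligase Slc27a5 by 0.28, the bile acid conjugating enzyme Baat by 0.66 and the related Acnat1 by 0.32. Those that rose were Acnat2 by 1.20, the thioesterase Acot9 by 0.74, the peroxisomal coenzyme A hydrolase Nudt7 by 0.45, the fatty aldehyde dehydrogenase Aldh3a2 by 0.41 and the leucine pathway enzyme Ivd by 0.26. Acot9 rested mainly on 8 months, at 0.17 and 1.31. Catalase (Cat), an abundant peroxisomal enzyme, was at 0.06 and 0.02, and the carnitine carrier Slc25a20 at -0.10 and -0.23 (limma adjusted p 0.23).

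Of 19 measured regulators of oxidation, 5 fell and 1 rose, with a median difference of -0.17 at 2 months and -0.15 at 8 months. Beside these stand 4.26% and 6.81% of all genes tested, whose medians were 0.01 and 0.00. These regulators too were picked with earlier results of these data known, so the contrast is no test. The nuclear receptor Ppara read 8.75 and 8.74 under the WT label against 8.33 and 8.17 under the KO label and fell by 0.49 (SE 0.08, limma adjusted p 0.0015). The coactivator Ppargc1b fell by 0.60, the factor Foxa2 by 0.49, the coactivator Lpin1 by 0.48 and the hepatic factor Creb3l3 by 0.32. Pparg, the receptor of lipid storage, rose by 0.57, and Ppargc1a and Tfam were higher by 0.43 and 0.42 without passing (limma adjusted p 0.076 and 0.057). The main partner of PPAR alpha, Rxra, was at -0.07 and -0.13, and the liver factor Hnf4a at -0.03 and -0.02.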

How the data were processed

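Liver RNA of 4 pools was measured on 4 Affymetrix arrays, 1 per group. The authors deposited log2 values per probe set, which the submitters' processing notes credit to RMA and Affymetrix Expression Console version 1.0v. RMA subtracts background, quantile normalizes and summarises probes, so differences of dim genes are compressed and a change in RNA per cell is hidden. The base of the logarithm is taken from RMA's definition, and the annotation build is not given in the sources used here. An array has no read depth, and the number of arrays limits the precision.

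Of 35556 probe sets, 21789 had 1 symbol, 1621 had several and 12146 were not listed in the platform table. Probe sets of 1 symbol were averaged per gene, and genes with a mean over the 4 arrays above the 40th percentile were tested. The additive model was fitted in R 4.3.3 with limma 3.58.1 (functions lmFit and eBayes, intensity trend on, prior of 11.3 degrees of freedom). The fit was also run on simulated data with known changes and noise of equal spread for all genes. That run held no spread between pools, so it does not show that the calls hold beyond these pools. Every member is named, by role. In the lists of other enzymes, peroxins and regulators, genes past the threshold and the 3 highest and 3 lowest were eligible, and others named there (Cat, Slc25a20, Rxra, Hnf4a) were chosen after their values were seen. Members and lists were chosen with earlier results of these data known. Alternatives were 2 other filters, 3 other scalings, the brightest probe set, no trend, no term for the other factor, and a lower fold threshold. Start windows were matched by symbol in a RefSeq table of build GRCm38.p6.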

Additional observations from a re-analysis of the deposited data

Results flagged for a closer look

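In 3 members the difference between 8 and 2 months ran in opposite directions in the 2 genotypes by at least 0.1 log2 units on each side. Eci2 was higher by 0.24 in the WT-labelled and differed by -0.16 in the KO-labelled arrays, a gap of 0.39. Eci1 stood at 0.11 and -0.18, a gap of 0.29, and Hadhb at 0.14 and -0.13, a gap of 0.27. The difference was not tested, since each group is 1 array.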

How the results depend on the processing

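The limits are the number of pools and the single residual degree of freedom. No paired analysis by replicate number was possible because the labels number no replicates; the term for age already sets the genotypes side by side within each age. In the additive model, leaving out an array leaves no residual degrees of freedom, and the fit without a term for age was not run with an array left out. The count of members that fell, 6 in the reported fit, was 2 without the filter on dim genes, 2 without the intensity trend and 11 under cyclic loess. Acaa1a and Acot3 passed in all 8 alternative fits. The count that rose, 0 as reported, was 1 with the filter at the 60th percentile, 1 under median centring, 1 with the brightest probe set, 2 without a term for age and 3 under cyclic loess. At a lower fold threshold of 0.32 log2 units in place of 0.58, 4 members (10.5%) were apart at 2 months, 7 (18.4%) at 8 months and 1 (2.63%) between ages in WT, against 25.4%, 16.1% and 5.47% of all genes. The other 49 recomputed counts stayed within 1.5 times the reported ones. Most of them were counts of 0 that stayed 0, and they include the members that fell under median centring, 4 against 6. Among the 7 genes followed singly, 0 reversed direction.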

Other observations

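Baat and its neighbours on chromosome 4, Acnat1 and Acnat2, which encode acyltransferases that join amino acids to bile acids or fatty acids, did not share a direction. Acnat2 read 6.38 at 2 months and 6.41 at 8 months under the WT label, against 7.64 and 7.56 under the KO label, and it rose with a mean difference of 1.20 (SE 0.09, limma adjusted p 2.27e-06). Acnat1, the next gene, read 9.54 and 9.44 against 9.15 and 9.19 and fell by 0.32 (SE 0.08, limma adjusted p 0.019). Baat, beside it, read 9.24 and 9.40 against 8.71 and 8.60 and fell by 0.66 (SE 0.09, limma adjusted p 0.000278). Both KO-labelled arrays thus lay above both WT-labelled arrays in 1 of the 3 genes and below them in the other two.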
